A study of Caenorhabditis elegans with 2 samples.

Results

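Neighbouring intervals less than 200 nt apart were taken from a list of sequenced 3′ end clones of Caenorhabditis elegans. In the deposited list, sorted by chromosome and start, an interval was a member when the gap to the interval before or after it on the same chromosome was below 200 nt. This rule took 308 of 4818 intervals (6.39%, exact binomial 95% interval 5.72 to 7.12), which formed 161 pairs among 4812 pairs of neighbours. The gap chose the members, so gaps are described here and not tested. All binomial intervals cover counting error only.

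The material was total RNA of N2 worms, the wild-type laboratory strain, grown as a mixture of stages and not otherwise treated. Each 3′ untranslated region (3′ UTR) had been amplified with an oligo-dT primer and a forward primer for its transcript, cloned in bacteria as a minipool and read by pyrosequencing. The labels describe 2 runs, of 6432 minipools and of 5952 minipools with 49152 barcoded products, and the list is recorded for the first of them. It is 1 library with no control and no replicate, it gives positions but no read counts, so its depth is unknown, and no comparison between groups was possible.

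A messenger's 3′ UTR follows its stop codon and ends at the poly(A) tail, and it holds the sites at which microRNAs and RNA-binding proteins act on the messenger. The worm genome is compact. Genes on opposite strands often end towards each other, which is called convergent, and genes on 1 strand may follow each other closely, some of them in operons. An interval close to another can therefore be the 3′ end of a neighbouring gene, a further stretch of the same 3′ UTR, or an exon of the same transcript on the other side of an intron.

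The list carries no usable strand and no gene. Gene, strand and exon were looked up in the annotation of assembly WBcel235 after the numbering of the list had been aligned with it locally, and all coordinates below are in the numbering of the list itself, of which no source used here names the build. The local difference between the numberings ran from −3 to 122 nt for the members, apart from 2 members near the end of chromosome V where it was 4610 nt. Of the pairs, 110 (68.3%, 60.5 to 75.4) lay on a single gene, 39 (24.2%, 17.8 to 31.6) on convergent genes, and 12 (7.45%, 3.91 to 12.7) had another layout.

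Gaps within the pairs ran from 1 to 199 nt around a median of 86 nt (quartiles 42 and 145 nt). The medians of the classes were close, at 87 nt for same-gene pairs, 86 nt for convergent pairs and 87 nt for the others. Of the convergent pairs, 16 had gaps below 50 nt, 14 had gaps from 150 nt up and 9 lay between. The limit of 200 nt did not mark a break. Among pairs with gaps from 200 to under 400 nt, 62 of 101 were same-gene (61.4%, 51.2 to 70.9) and 27 of 101 convergent (26.7%, 18.4 to 36.5). From 800 to under 1000 nt the same-gene pairs were 21 of 61 (34.4%, 22.7 to 47.7).

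**Figure D1:**
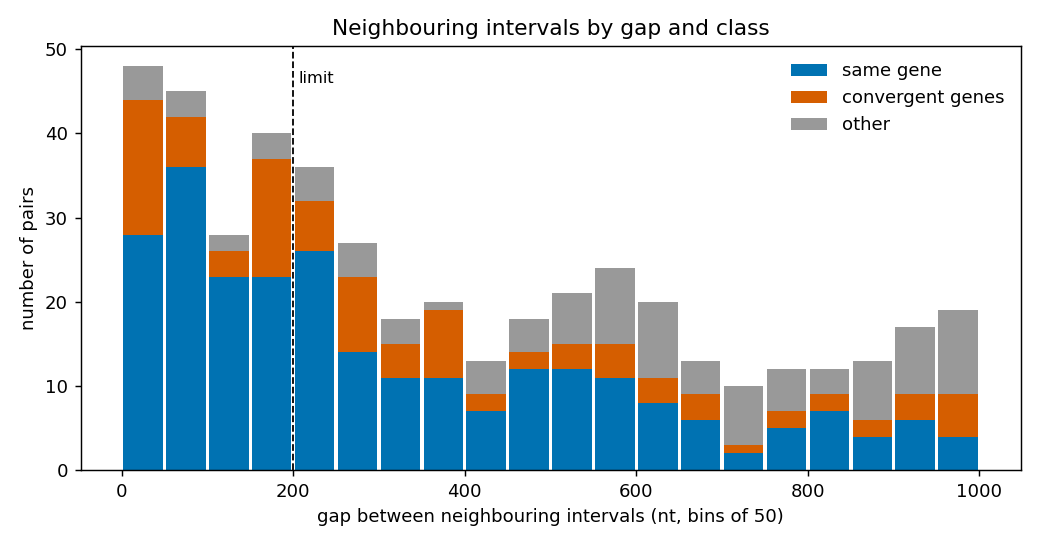
Number of neighbouring interval pairs (y axis) by the gap between them in bins of 50 nt (x axis, to 1000 nt), stacked by class, with a dashed line at the 200 nt limit. The bins below 50 nt and from 50 nt hold 48 and 45 pairs, and same-gene pairs are the largest class in each bin below 500 nt.

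Just inside the limit lay a pair over M03B6.4 and M03B6.3 with a gap of 199 nt and a pair on F46C5.9 with 197 nt. Just outside, a pair on hsp-6, a mitochondrial heat shock protein gene, and the convergent pair natc-2 and B0238.9 each had a gap of 200 nt.

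Members were neither longer nor shorter than the rest by more than a few nt, with a median of 186 nt (interquartile range 139.75 to 262.75) against 183 nt (136 to 262) for the 4510 other intervals. What they lay on was different. A 3′ end of 1 gene was given to 170 of 308 members (55.2%, 49.5 to 60.8) and to 3486 of 4510 other intervals (77.3%, 76.0 to 78.5). On exons, but meeting no 3′ end by the rule used, lay 133 members (43.2%, 37.6 to 48.9) and 754 of the others (16.7%, 15.6 to 17.8). Such an interval can still lie near a 3′ end. In the 54 same-gene pairs with such an interval before a 3′ interval, it ended a median of 179 nt before the last stop codon. The length and the place of an interval bear on its gap, so these contrasts are descriptions. Chromosome I had the highest share of members, 75 of 863 intervals (8.69%, 6.90 to 10.8), and chromosome V the lowest, 37 of 797 (4.64%, 3.29 to 6.34). Of the 75, 6 lay on the ribosomal RNA gene rrn-3.1 and 5 formed 1 run in unc-89. Intervals of 1 run are not independent, which the binomial intervals do not cover.

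The 39 convergent pairs consisted of 78 intervals, with a median length of 183 nt. The pairs were on chromosomes III (12), I (9), II (7), IV (5), V (4) and X (2). In 22 pairs both intervals began at a stop codon, that is, the 5′ edge lay no more than 60 nt upstream of its last base. In 16 pairs 1 interval did so and in 1 pair neither did. In all, 60 of the 78 intervals (76.9%, 66.0 to 85.7) began at a stop codon, against 2927 of 3486 intervals given to a 3′ end outside the members (84.0%, 82.7 to 85.2). Of the remaining 18, 12 began further upstream and 6 past the stop codon. Among the 6, the intervals of T10C6.7, M01H9.5 and Y56A3A.16 started 1648, 1258 and 653 nt past it on the genome. That these intervals belong to the 3′ ends of those genes is less sure.

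The intervals of convergent genes that began at a stop codon had values close to those of non-members at both edges. This likeness is partly built in. Both sets were limited to 5′ edges no more than 60 nt upstream, which bounds that distance. Products of both sets were amplified with a forward primer for their transcript, so where it was placed bears on the 5′ edge. The primer positions were not used here. The shift between the numberings was fitted to annotated ends, which favours 3′ edges near them in both sets. The median distance from the 5′ edge to the stop codon's last base was 32 nt, against 33 nt for the non-members. A median of 142.5 nt followed the stop codon (interquartile range 109.75 to 226.25), against 151 nt (106 to 231). The 3′ edge lay within 20 nt of an annotated transcript end in 40 of 60 (66.7%, 53.3 to 78.3), against 1859 of 2927 (63.5%, 61.7 to 65.3). The annotation may itself contain these clones, which was not tested.

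Among the 22 pairs with both edges at a stop codon, the facing products nearly touched in several. wdr-62, the worm's relative of a WD-repeat protein of the mitotic spindle, and F07D3.3 were separated by 5 nt (V, 9460252 to 9460554 and 9460560 to 9460700). Between their stop codons lay 371 nt, of which the wdr-62 interval took 265 nt and that of F07D3.3 took 101 nt. The annotated transcripts of these genes overlapped by 77 nt, and the wdr-62 interval ended 90 nt short of the nearest annotated end whereas that of F07D3.3 ended 8 nt beyond its own.

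ipp-5, an inositol polyphosphate 5-phosphatase gene, and hsp-25, a small heat shock protein gene, were 8 nt apart (X, 6033971 to 6034451 and 6034460 to 6034732). Both of these products were long, with 457 and 244 nt after the stop codon, and ended 11 and 1 nt from annotated ends. The stretch of 709 nt between these stop codons was covered but for the gap.

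nit-1, a nitrilase gene, and ZK1058.9 were 10 nt apart (III, 3923735 to 3923850 and 3923861 to 3924006). Their stop codons were 211 nt apart, the closest among the 22 pairs. The annotated transcripts overlapped by 93 nt, more than in any other of the 22. The nit-1 interval ended 4 nt from an annotated end, and that of ZK1058.9 ended 107 nt short of its own.

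T10E9.1 and acdh-4, an acyl-CoA dehydrogenase gene, followed with 15 nt, and kbrl-1 and inx-14, the latter an innexin of gap junctions, with 16 nt. sams-3, an S-adenosylmethionine synthetase gene, and C06E7.4 were 19 nt apart, and F15B10.3 and nstp-2, a nucleotide-sugar transporter family gene, 29 nt. In the first of these 4 pairs the annotated ends were 21 nt apart and both intervals ended within 4 nt of them. In kbrl-1 and sams-3 the annotated transcripts overlapped the partner's, by 78 and 18 nt, and the intervals ended 91 and 39 nt short of the nearest annotated end.

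ant-1.1, the main mitochondrial ADP/ATP translocase gene, and cdk-5, a neuronal cyclin-dependent kinase gene, were 33 nt apart (III, 13464184 to 13464530 and 13464564 to 13464729), and both ended within 2 nt of annotated ends. A gap of the same size separated rskn-2, a gene of the ribosomal S6 kinase family, from dod-18, whose name stands for downstream of daf-16 (I, 8019045 to 8019536 and 8019570 to 8019721). Here 471 nt followed the rskn-2 stop codon and 119 nt that of dod-18. tmem-189 and Y53C10A.6, 36 nt apart, overlapped by 61 nt in the annotation, and the tmem-189 interval ended 96 nt short.

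The longest pair by combined length was unc-104, the kinesin that carries synaptic vesicle precursors, with sqv-7, a nucleotide-sugar transporter gene of vulval morphogenesis (II, 7010115 to 7010555 and 7010734 to 7011048). It had 407 and 282 nt after the stop codons and a gap of 178 nt, and both intervals ended within 8 nt of annotated ends. After ipp-5 with hsp-25 and rskn-2 with dod-18 came lsm-7, an Sm-like protein gene, with lgg-2, an LC3-like autophagy gene (IV, 10934049 to 10934172 and 10934259 to 10934763), in which 90 nt faced 477 nt. The lgg-2 interval ended 91 nt short of its nearest annotated end. Y75B8A.8 and gly-11, a glycosyltransferase gene, had 370 and 150 nt after the stop codons and a gap of 161 nt, and the Y75B8A.8 interval ended 173 nt short. Over all 39 convergent pairs the smallest gap was 3 nt, between mlc-1, a myosin light chain gene, and slc-17.1 (X, 17460366 to 17460690 and 17460694 to 17460864), where the mlc-1 interval started 294 nt past its stop codon. The genes of that pair were named after their values were seen.

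**Figure D2:**
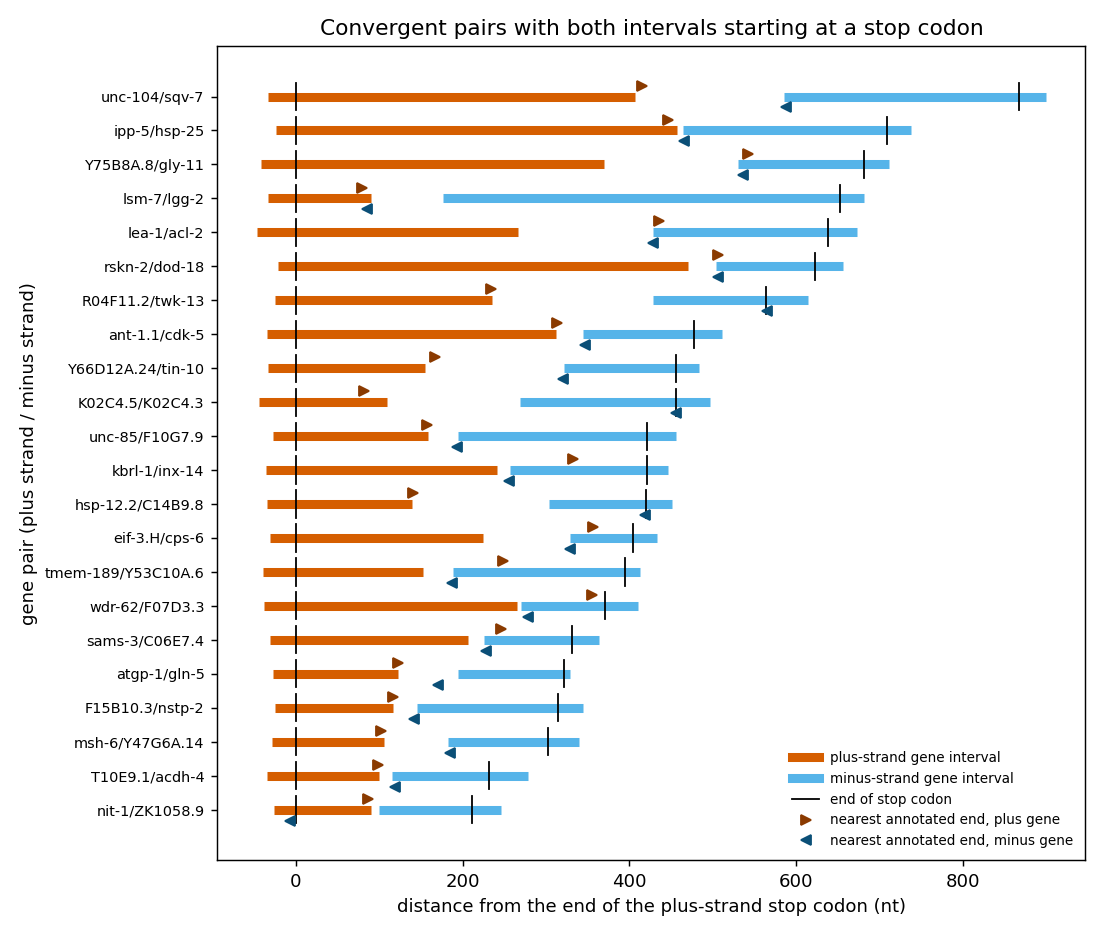
Each line is 1 of the 22 convergent pairs in which both intervals began at a stop codon, placed by distance in nt from the end of the plus-strand stop codon (x axis), with bars for the intervals, black ticks for the ends of the stop codons and arrowheads for the nearest annotated transcript ends. Pairs are ordered by the distance between stop codons, from 211 nt (nit-1/ZK1058.9) to 867 nt (unc-104/sqv-7).

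Over the 22 pairs the stop codons lay a median of 421 nt apart (interquartile range 341 to 608.25), and a median of 11.2% of that stretch was left uncovered. The 2 sides were rarely equal. The longer side had a median of 225.5 nt after its stop codon and the shorter 120.5 nt, the median ratio was 1.46, and in 6 of 22 pairs it was at least 2. The highest, 5.30, was that of lsm-7 and lgg-2. The plus-strand side was the longer in 13 of 22.

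In 13 of these 22 pairs (59.1%, 36.4 to 79.3) the longest annotated transcripts of the genes overlapped, by a median of 53 nt. The gap rule itself favours close 3′ ends, so nothing is read from this share. In the overlapping 13, 9 of 26 3′ edges (34.6%, 17.2 to 55.7) lay more than 20 nt short of the nearest annotated end and 13 of 26 within 20 nt. In the 9 pairs whose annotated transcripts stayed apart, 2 of 18 edges (11.1%, 1.38 to 34.7) were short, 16 of 18 within 20 nt and 0 of 18 beyond. The list has 0 overlapping neighbours, so overlapping products cannot both be shown in full.

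The annotated convergent neighbours were sorted by whether each gene had been given an interval or, failing that, 1 interval met the 3′ ends of both. Of 1311 annotated convergent neighbours with stop codons less than 300 nt apart, 303 had an interval that met both and 7 had an interval given to each gene. From 600 to under 1000 nt, 24 of 714 had an interval that met both and 34 an interval for each, and from 1000 nt up the counts were 7 and 46 of 1301. These forms do not ask the same: of all 459 neighbours with an interval that met both, 290 (63.2%, 58.6 to 67.6) had it given to 1 gene by the stop codon at its edge, and in 169 it was given to neither. Intervals were at least 96 nt long and did not overlap, so close stop codons leave little room for separate ones, and no preference was read from the counts. In all, 120 annotated neighbours had an interval for each gene, of which 37 were among the pairs described here. The other 2 convergent pairs, rskn-2 with dod-18 and Y66D12A.24 with tin-10, were not direct neighbours among the annotated genes after nested ones had been set aside. The set of primed genes was not used here, so a pair with no interval says nothing of the amplification.

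**Figure D3:**
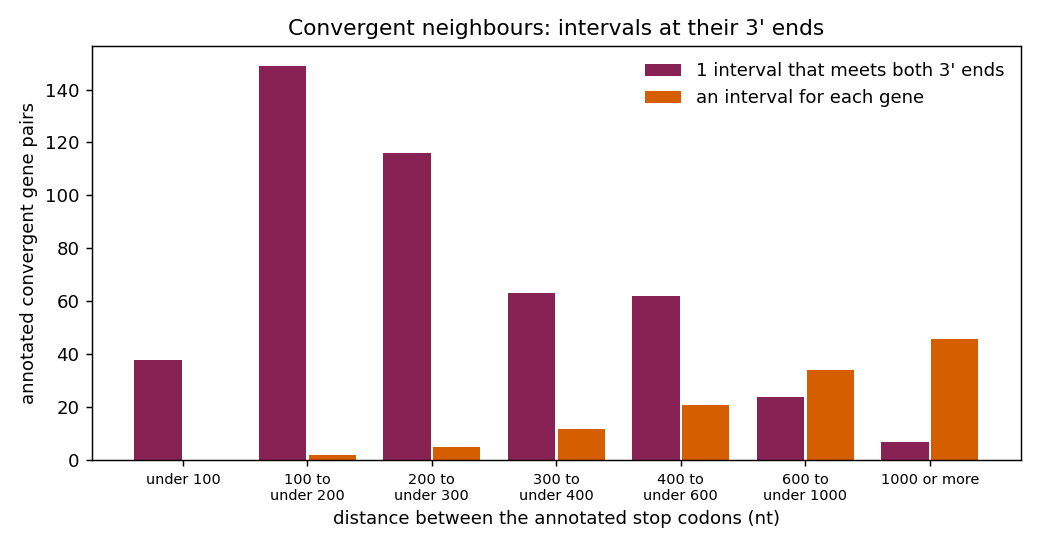
Number of annotated convergent gene pairs (y axis) by the distance between their stop codons in nt (x axis), with 1 interval that meets both 3′ ends or with an interval given to each gene. At 100 to under 200 nt the counts are 149 and 2, and from 1000 nt up they are 7 and 46, and the room between close stop codons limits the separate form.

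Ribosomal protein genes took part in 3 convergent pairs, and in each their interval began upstream of the 60 nt limit. rpl-25.2 faced cep-1, the worm's p53 gene, across 188 nt with 57 nt after its stop codon. rps-13 faced thoc-2, a THO complex gene of messenger export, across 194 nt with 29 nt, and rpl-35 faced tag-307 across 19 nt with 73 nt. In each of the 3 the ribosomal side was the shorter one, the partners having 161, 136 and 173 nt after the stop codon. The other listed family members in convergent pairs were nlp-18, a neuropeptide gene that faced the splicing factor gene let-858 across 43 nt, unc-104, and unc-85, an ASF1-type histone chaperone gene that faced F10G7.9 across 36 nt. The gene families had been chosen by symbol.

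The 110 same-gene pairs held 210 intervals. Of the pairs, 103 lay on 93 protein-coding genes and 7 on RNA genes or pseudogenes. In 54 of the 110 (49.1%, 39.4 to 58.8) an interval on an exon, not given to the 3′ end, was followed by 1 at the 3′ end. In 33 (30.0%, 21.6 to 39.5) both lay on exons of the gene and neither was given to its 3′ end. Both lay at the 3′ end in 16 (14.5%, 8.55 to 22.5). Which exon held an interval was not checked, and it could be the exon of the stop codon. The gap in the 103 coding pairs was exonic throughout in 54 (52.4%, 42.4 to 62.4), matched an annotated intron in 30 (29.1%, 20.6 to 38.9), held a whole intron with exonic sequence in 14 and another mixture in 5.

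**Figure D4:**
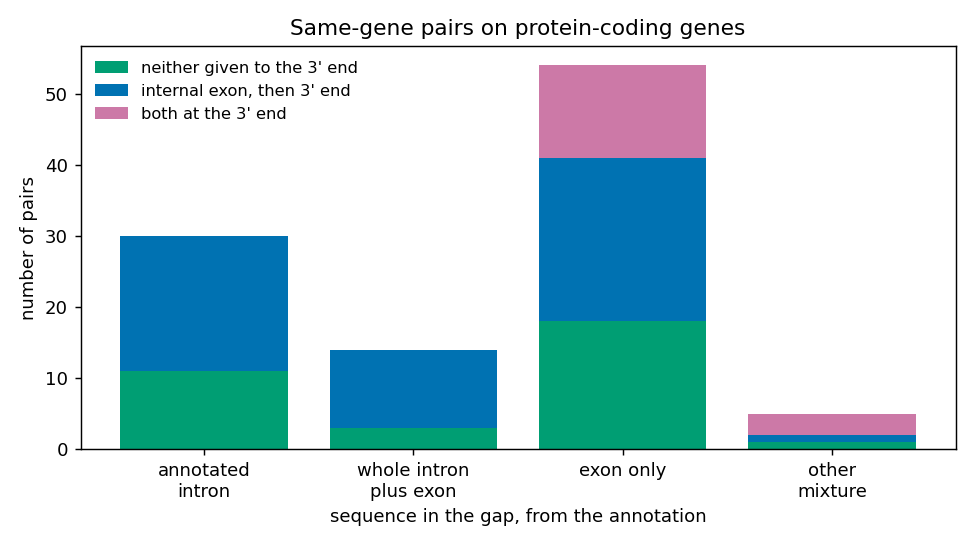
Number of same-gene pairs on protein-coding genes (y axis) by what the annotation holds in the gap (x axis), stacked by where the 2 intervals lie. Exonic gaps lead with 54 pairs, and all 30 gaps at an annotated intron have at least 1 interval that was not given to the 3′ end. The label internal exon stands for an interval on an exon and not given to the 3′ end. Whether that exon was internal was not checked.

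With the pseudogenes F08B4.3 and Y69A2AR.8, 32 of 110 same-gene gaps (29.1%, 20.8 to 38.5) had both edges within 10 nt of the edges of 1 annotated intron. The match was close. In 21 of the 32 the gap was as long as the intron to the nt, and in 30 it differed by at most 2 nt. These introns were short, with a median of 78.5 nt and a range of 47 to 197 nt. Whether the intervals of such a pair came from 1 spliced product was not tested, as the list holds no reads. In 1 of the 32, that of rpl-26, the whole gap was also exonic in another annotated transcript.

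The longest pairs at an intron were those of R07H5.9 (122 and 517 nt around 61 nt), dim-1, a muscle immunoglobulin-domain protein gene (440 and 128 nt around a gap of 77 nt), rpl-25.1 (126 and 402 nt around 68 nt), F25B5.5 (203 and 315 nt around 50 nt) and F46C5.9 (377 and 140 nt around 197 nt). The later R07H5.9 interval also met the 3′ ends of several genes. Other pairs of this kind lay far from the 3′ end, as in unc-15, the paramyosin gene, whose earlier interval ended 4347 nt before the stop codon, and ifg-1, an eIF4G translation factor gene, with 3644 nt.

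Ribosomal protein genes made up 8 same-gene pairs, and the gap matched an annotated intron in all 8. They were rpl-13, rpl-19, rpl-23, rpl-25.1, rpl-26, rps-7, rps-15 and rps-18, with introns of 55 nt (rps-15) to 155 nt (rps-18). The 3′ interval began at the stop codon in 1 of the 8, rpl-26, where 135 nt followed it and the gap was also exonic in another transcript. Over the 8, a median of 50.5 nt followed the stop codon, down to 30 nt in rps-7. Of all 64 intervals on ribosomal protein genes, 20 (31.3%, 20.2 to 44.1) were members, against 6.39% of the whole list. The shortest interval of the list was 96 nt, and whether a lower limit on length had a part in this share was not tested.

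**Figure D5:**
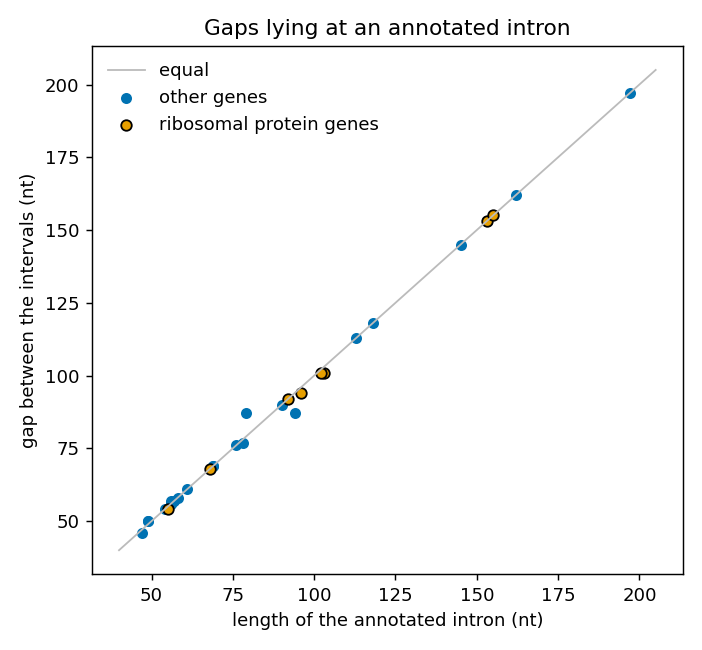
Gap between the 2 intervals in nt (y axis) against the length of the annotated intron in nt (x axis) for the 32 same-gene pairs at an intron, with a line of equality and the 8 ribosomal protein pairs marked. In 30 of the 32 pairs gap and intron differ by at most 2 nt.

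Other families had fewer members, and their shares are to be read against 6.39% of the whole list. Collagen genes of the cuticle gave 6 of 46 intervals (13.0%, 4.94 to 26.3), in col-107, col-129 and col-181, of which only the col-107 pair had its gap at an intron, of 56 nt. unc genes, named for uncoordinated movement and unlike in sequence, gave 9 of 46 (19.6%, 9.36 to 33.9), of which 5 were the intervals of 1 run in unc-89. Vacuolar ATPase genes gave 2 of 9 (22.2%, 2.81 to 60.0), proteasome genes 2 of 18 (11.1%, 1.38 to 34.7) and neuropeptide genes 1 of 36 (2.78%, 0.0703 to 14.5). Mitochondrial ribosomal protein genes gave 0 of 32 (upper limit 10.9%), nuclear receptor genes 0 of 12 (26.5%) and kinesin genes named klp 0 of 10 (30.8%). The kinesin gene unc-104, a member, was counted with the unc genes. Histone genes gave 0 of 8 (upper limit 36.9%), small GTPase genes named rab 0 of 3 (70.8%) and complex I genes 0 of 2 (84.2%). Collagen and ribosomal protein genes include near copies, and no source used here says where a read with more than 1 match was put, so the positions of their intervals carry that uncertainty.

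Where an interval not given to the 3′ end was followed by a 3′ interval, the kind of gap was set beside where the 3′ interval began. These are not independent. After a gap at an intron the later interval starts within 10 nt of an exon edge by definition. It can then begin at a stop codon only if the stop codon lies near that edge. With the gap at an intron it began at the stop codon in 3 of 19 pairs (15.8%, 3.38 to 39.6). With an exonic gap it did so in 19 of 23 (82.6%, 61.2 to 95.05), and with a gap that held an intron and exonic sequence in 10 of 11 (90.9%, 58.7 to 99.8). In the latter 2 kinds the later interval thus mostly began at the stop codon, and the earlier interval lay in exon sequence just upstream. No conclusion is drawn from the contrast with gaps at an intron.

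The nearest of these earlier intervals almost met the 3′ intervals that followed. In ric-3, a chaperone gene of acetylcholine receptors, 3 nt lay between them (IV, 7820511 to 7820689 and 7820693 to 7820841), and the later interval began 38 nt upstream of the stop codon's last base. In pges-2, a prostaglandin E synthase family gene, the gap was 4 nt (IV, 10366307 to 10366522 and 10366527 to 10366803), and the 3′ interval began likewise 38 nt upstream and ended 1 nt from an annotated end. gldi-11 followed with 6 nt and R04F11.3 with 16 nt. knl-2, a centromere protein gene, had 22 nt. Over the 19 such pairs with an exonic gap the median gap was 47 nt, with a range of 3 to 175 nt. The widest was that of gpa-17, a G protein alpha subunit gene, whose 3′ interval had 72 nt after the stop codon and ended at an annotated end. The widest gap of those with an intron and exonic sequence was 187 nt, in F48D6.4, whose 3′ interval ended at an annotated end.

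In 12 of the 16 pairs with both intervals at the 3′ end, the first interval began at the stop codon and the other started past it, further into the 3′ UTR. The first ended a median of 214.5 nt after the stop codon and the second a median of 510 nt after it (range 277 to 719). The second lay within 20 nt of an annotated transcript end in 4 of the 12, and the first in 1. The first was more than 20 nt short of the nearest annotated end in 8. In spv-1, eel-1 and cmd-1 that nearest end was the stop codon itself, in a transcript annotated without a 3′ UTR. Their first intervals lay 211, 174 and 172 nt beyond it, so they are not among the 8 whatever longer transcripts hold. Pieces of 1 long product and products of different length cannot be told apart in a list without reads.

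In vha-2, a proteolipid subunit gene of the vacuolar ATPase, the first interval ended 309 nt after the stop codon (III, 9782617 to 9782954). The second began 356 nt after it and ended 0 nt from an annotated end (III, 9783001 to 9783121). rga-3 had 209 nt in the first and 504 nt to the end of the second, which lay 2 nt from an annotated end (V, 5721536 to 5721776 and 5721827 to 5722071). alkb-8, a gene of the AlkB family that acts on transfer RNA, had 238 and 470 nt, 3 nt from an annotated end (III, 3712825 to 3713096 and 3713214 to 3713328). ceh-41, a ONECUT-type homeobox gene, had 260 and 556 nt, 7 nt from an annotated end. In these 4 genes the second edge is the annotated one and the first lies well before it, by 168 nt in vha-2 and 297 nt in rga-3.

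rsp-3, a gene of an SR splicing factor, showed the reverse. Its first interval, 310 nt after the stop codon, ended 6 nt from an annotated end, and the second started 5 nt further on and ended 180 nt beyond that end (III, 12686585 to 12686932 and then 12686399 to 12686579, on the minus strand). In tres-1 the gap was 1 nt, with 112 nt in the first and 277 nt to the end of the second, neither within 20 nt of an annotated end. ima-3, an importin alpha gene, had 198 and 618 nt, and spv-1 had 211 and 719 nt. eel-1, a HECT-type ubiquitin ligase gene, had 174 and 403 nt, and C17C3.11 and C33D9.6 ended 619 and 569 nt after the stop codon.

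The other 4 pairs at the 3′ end differed. In hipr-1, a huntingtin-interacting protein relative, each interval began at a stop codon, 12 and 50 nt before its end, so they belong to different annotated stop codons (III, 8724703 to 8724847 and 8724870 to 8725229). In rpn-2, a proteasome subunit gene, the first interval ended 38 nt before the last stop codon and the second began 10 nt before its end. In plin-1, a perilipin gene, the intervals ended 551 and 52 nt after a stop codon, 0 and 3 nt from annotated ends. puf-5, a Pumilio-family gene of oogenesis, had 11 nt between intervals that ended 69 and 312 nt after the stop codon.

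The 33 pairs with neither interval given to a 3′ end held 62 intervals, and in 25 of them both intervals were coding in at least 90% of their length. The earlier interval ended a median of 1822 nt before the last stop codon, counted on the genome. Apart from the later interval of R07H5.9, described above, no interval of these pairs met a 3′ end by the rule used. Whether their exons were internal was not checked. The following genes were picked with their values in view. ttn-1, the worm's titin gene, had 2 such pairs, with gaps of 173 nt (V, 6173771 to 6173909 and 6174083 to 6174219) and 32 nt, which lay 52523 and 54539 nt before its stop codon. vit-2 and vit-6, which encode yolk proteins, had gaps of 57 and 128 nt, hsp-90 a gap of 151 nt and nucl-1, a nucleolin-related gene, 2 pairs with gaps of 111 and 42 nt.

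Of the 147 runs of neighbouring members, 135 had 2 intervals, 11 had 3 and 1 had 5. The run of 5 lay within coding exons of unc-89, the obscurin-like giant protein of the muscle M-line (I, 4055403 to 4056983). Its intervals of 324, 247, 140, 193 and 298 nt were separated by 37, 122, 119 and 101 nt, all exonic.

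cmd-1, the calmodulin gene, had a run that joined an exon to 2 stretches at its 3′ end (V, 1156960 to 1157710). The first gap, 57 nt, was an annotated intron of that length. The second interval began 29 nt upstream of the stop codon's last base and ended 172 nt past it, and the third, 188 nt further on, ended 516 nt after the stop codon. The last gap was exonic and the largest among same-gene pairs at no intron. The ant-1.1 exon, its 3′ interval and the facing cdk-5 interval made a run that crossed strands (gaps of 77 and 33 nt). A run in mcm-3AP had gaps of 69 nt, an annotated intron, and 172 nt.

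Of the remaining runs of 3, pmlr-1 had gaps of 55 and 82 nt, mdl-1, a MAD-like transcription factor gene, 78 and 161 nt, and F49E2.5 174 and 87 nt. The knl-2 run of 22 and 77 nt ended in an exon of acdh-3 on the opposite strand. Both of the last runs of 3 on chromosome I lay on rrn-3.1, a 26S ribosomal RNA gene, with gaps of 122 and 87 nt (15064485 to 15065574) and of 61 and 6 nt (15066037 to 15067641). Together 6 intervals of 2419 nt touched this gene, which carries no poly(A) tail of the messenger kind, and the longest member of all, 814 nt, was among them. Ribosomal RNA genes are repeated in the genome, so the placing of these reads on 1 copy is uncertain.

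The 12 pairs of other layout were of 4 kinds, and numbered 5 when an interval was counted for each gene it met, a choice made after the classes had been seen. In 4 of them the genes followed each other on 1 strand, with the 3′ interval of the first next to an exon of the next. syf-2 and rnp-7, a splicing factor gene and a gene of a U1 snRNP protein, were 1 nt apart (III, 7160822 to 7161086 and 7161088 to 7161274), and the syf-2 interval also had an exon interval of its own gene 51 nt away. C53H9.2 with rpl-27 (188 nt), ocrl-1 with C16C2.4 (97 nt) and algn-9 with crn-3 (110 nt) had the same layout.

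In 3 pairs a 3′ interval faced an exon of an opposite-strand gene, as in smut-1 with crt-1, the calreticulin gene, across 51 nt (V, 6098845 to 6099233 and 6099285 to 6099389). In 4 pairs an interval met the 3′ ends of several genes and was given to none of them. Whether those ends lay on both strands was not checked. The pairs were F49C12.11 with F49C12.12 (12 nt), inft-2 with F15B9.10 (48 nt), and 2 in the run over M03B6.4 and M03B6.3. In the last pair, with a gap of 47 nt, the interval at 1333752 of chromosome III met no annotated exon and its neighbour lay on the pseudogene Y82E9BL.9.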

How the data were processed

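Pyrosequencing of cloned RACE products (rapid amplification of cDNA ends) from 1 run was used. The authors deposited a list of intervals with 0-based start and end positions in nt, and the deposited score column holds 0 in each row and was not used. The strand column holds a plus sign throughout. No source used here names the assembler, the aligner, the filters or the genome build.

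From these positions, gaps were computed with Python 3.11.15, numpy 2.4.6, pandas 2.3.3 and scipy 1.17.1. Starts are printed 1-based. Genes came from Ensembl release 115 on WBcel235. For each interval the shift between the numberings was taken as the most frequent distance from interval edges to annotated transcript ends over 41 neighbouring intervals, smoothed with a Gaussian of 5 nt and a running median. It served only to look up genes, and no coordinate was converted for print. After the shift, the median distance from 5′ edge to the last base of the stop codon was 33 nt on each strand. That median covers only intervals that began at a stop codon, so it is bounded by the 60 nt limit. A gene received an interval that shared 10 nt or more with its stop codon plus 3′ UTR, or that began no more than 60 nt upstream of the stop codon's last base. Where several genes qualified, the only 1 with its stop codon at the edge was taken, and otherwise none. An annotated end was that of any annotated transcript with a stop codon, also of one that ends at its stop codon.

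A pair was convergent when a plus-strand gene's 3′ interval preceded that of a minus-strand gene. It was same-gene when both intervals lay on 1 gene, each 3′ interval counting for its own gene only. That last condition was set after the classes had been seen. Members, families and rules were chosen with earlier results of these data known. The genes named are the convergent pairs with the 10 smallest gaps and 5 largest combined lengths among those with both edges at a stop codon, the 5 smallest and 5 largest same-gene gaps at no intron, the 5 longest pairs at an intron, the 5 smallest gaps of other pairs, runs of 3 or more, pairs next to the limit, and family members in convergent pairs. Any further gene was picked with its values in view. Scripts were tested on simulated data. No statistical test was run.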

Additional observations from a re-analysis of the deposited data

How the results depend on the processing

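No paired analysis was possible because the list is 1 library. Of 82 values recomputed under alternatives, 71 stayed within 1.5 times the reported count or, for the median length (183 to 192 nt), within its binomial interval of 173 to 197 nt. Many of these alternatives left out 1 chromosome and kept most pairs, which favours values within that band. The band is also wide, and it took in the 427 members found with a limit of 300 nt. The tally is therefore no measure of stability. With a limit of 100 nt there were 181 members and 93 pairs, of which 22 were convergent, 64 same-gene, 7 other, and 21 had the gap at an annotated intron. With 500 nt there were 553 members and 293 pairs. Without correcting the numbering, 25 pairs fell in the other layouts, 10 gaps matched an intron and 27 pairs were convergent, and 143 of 161 pairs had the same class. With the shift taken from stop codons in 1 Mb windows, 160 had the same class. When an interval counted for each gene it met, an alternative added after seeing the data, 5 pairs had another layout. Without any 1 chromosome, convergent pairs numbered 27 to 37. The shift is known to a few nt only, which limits distances to annotated edges. The missing strand leaves intervals over both strands undecided, and overlapping forms of 1 gene cannot be seen.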
